A study of Homo sapiens with 36 samples.

Results

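HCT116 colorectal cancer cells of the genotype UHRF1-AID/DNMT1-AID (UHRF1/DNMT1-AID for short) were compared with HCT116 cells of the genotype UHRF1-AID after 8 days of Dox/Auxin, with 3 poly-A RNA-seq libraries a side. The members are these 6 libraries, chosen by line and day from the 36 libraries of the series, which also hold a DNMT1-AID line, WT cells and days 2 and 6. In UHRF1-AID only UHRF1 carries the mini-AID tag, and in UHRF1/DNMT1-AID both UHRF1 and DNMT1 do. All lines, WT included, express the plant ubiquitin ligase OsTIR1 from a Dox-inducible promoter and were given Dox and auxin alike, after 1 day with Dox and the OsTIR1 inhibitor auxinole, so that the tagged proteins are degraded while the genes themselves stay in place. The lines are edited clones, the labels do not name the clone behind a library, and what sets the lines apart beyond the tags cannot be told apart from the tags in this comparison. UHRF1 is thus depleted on both sides, and the comparison asks what the added depletion of DNMT1 goes with.

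At each cell division the new DNA strand starts without methyl groups. UHRF1 recognizes the half-methylated CG sites left behind the replication fork and ubiquitinates histone H3, which recruits DNMT1, the enzyme that copies the methylation onto the new strand, and further cell divisions without this step dilute the methylation of the genome. Promoters of germline genes, of cancer-testis antigens on the X chromosome and of several endogenous retroviruses are held silent by DNA methylation in most somatic cells. Transcripts from such elements can be read as foreign nucleic acid by cytosolic sensors, which signal to interferon genes. Cells that leave the cell cycle for good, in senescence, often secrete cytokines, chemokines and proteases.

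The 3 libraries of UHRF1/DNMT1-AID held 22808459 to 29839674 reads in genes and those of UHRF1-AID 30470874 to 33116277. Levels are given as CPM, reads scaled to a common library size after TMM normalisation, and differences as log2 fold changes ± SE of UHRF1/DNMT1-AID over UHRF1-AID from edgeR's quasi-likelihood test, with Benjamini-Hochberg adjusted p-values over all 15415 protein-coding genes tested. Within a line the libraries correlated at 0.9795 to 0.9835 in UHRF1/DNMT1-AID and 0.9832 to 0.9886 in UHRF1-AID (Pearson's r over genes, log2 CPM). Replicate 2 of UHRF1-AID stood farthest from its own group, its counts differing from those of replicates 1 and 3 by a chi-squared statistic of 44.9 and 40.8 per degree of freedom, where replicates 1 and 3 differed by 11.4. Replicate 3 of UHRF1/DNMT1-AID differed from the other UHRF1/DNMT1-AID libraries by 29.0 and 37.5, and those 2 from each other by 11.3. Of the 10 colon epithelial markers fixed for HCT116, 8 had at least 10 CPM in both lines, while CDH17 and CEACAM5, 2 markers of differentiated colon epithelium, stayed below 1 CPM in both. The 21 markers of leukocytes, fibroblasts and endothelium summed to 66 to 76 CPM in UHRF1/DNMT1-AID and 47 to 59 CPM in UHRF1-AID, and 14 of them were below 1 CPM in both lines, KDR of endothelium with 0 reads in either. The highest of them, COL1A1 and CD68, averaged 40.2 and 17.4 CPM in UHRF1/DNMT1-AID, against 33.4 and 10.6 CPM in UHRF1-AID. The source of these reads and their part in the results were not tested.

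DNMT1 (ENSG00000130816.17, chromosome 19, 10133342 to 10231286) mRNA stood at 53.4, 46.2 and 32.6 CPM in UHRF1/DNMT1-AID, against 169, 121 and 163 CPM in UHRF1-AID. All 3 UHRF1/DNMT1-AID libraries lay below every UHRF1-AID library, and the mRNA was 3.43-fold lower (log2 fold change -1.78 ± 0.21, adjusted p = 2.75e-07). DNMT1-AID, the line in which DNMT1 alone is tagged, held 70.1, 59.1 and 62.8 CPM and WT 191, 210.1 and 195 CPM, so the transcript was low in both lines with the tagged gene. UHRF1 (ENSG00000276043.5, chromosome 19, 4903080 to 4962154), tagged on both sides, stood at 67.2, 39.3 and 75.6 CPM in UHRF1/DNMT1-AID, against 139, 87.4 and 131 CPM in UHRF1-AID. It too was lower, by a log2 fold change of -0.97 ± 0.25 (adjusted p = 0.00296), but the fit on these 6 libraries alone does not call it. An mRNA level says nothing on how much of either protein was degraded.

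**Figure D1:**
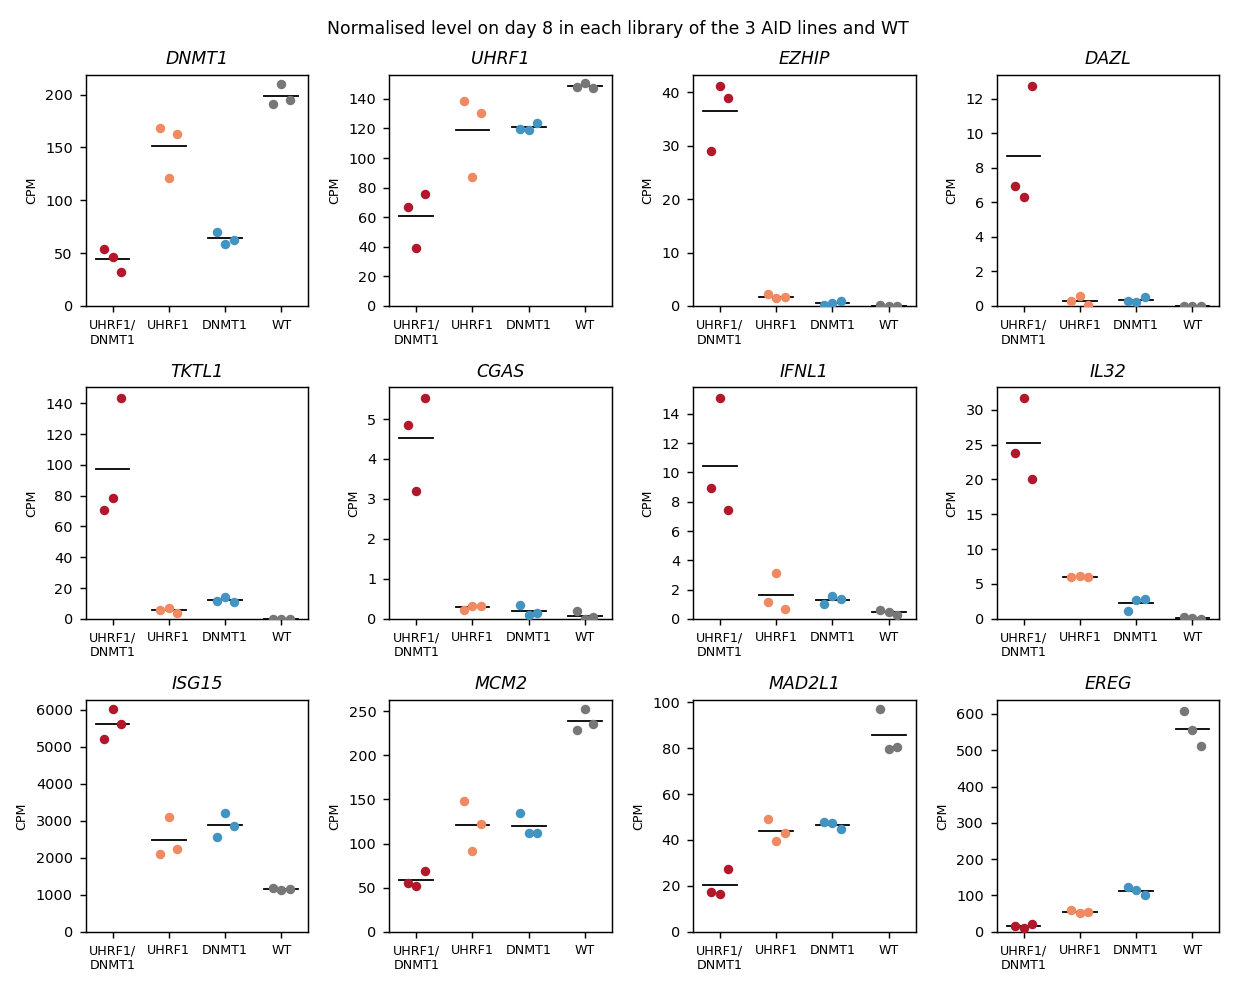
Normalised level (CPM, linear axis from 0) of 12 genes on day 8 in the 3 libraries of UHRF1/DNMT1-AID, UHRF1-AID, DNMT1-AID and WT; points are libraries and black bars their mean. In every panel the 3 UHRF1/DNMT1-AID points lie apart from the 3 UHRF1-AID points, above them for EZHIP, DAZL, TKTL1, CGAS, IFNL1, IL32 and ISG15 and below them for the other 5.

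Among protein-coding genes, 1009 were higher in UHRF1/DNMT1-AID by more than 2-fold (6.55% of the 15415 tested) and 269 lower (1.75%), with adjusted p-values under 0.05. Without the limit on size the balance was the other way, with 3140 genes higher (20.4%) and 3615 lower (23.5%), and a median log2 fold change over all genes of -0.01. The 3 libraries of UHRF1/DNMT1-AID lay wholly above those of UHRF1-AID in 3409 genes (22.1%) and wholly below in 3523 (22.9%). Without replicate 2 of UHRF1-AID the counts past 2-fold were 1145 higher and 371 lower, and without replicate 3 of UHRF1/DNMT1-AID they were 1007 and 311. Scaled by library size only, which shifts the median of all genes by -0.11, 67.8% of the genes past 2-fold were higher, against 79.0% with TMM.

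Most genes that were higher in UHRF1/DNMT1-AID were close to silent in WT cells. Their median level was 2.46 CPM in UHRF1/DNMT1-AID, 0.681 CPM in UHRF1-AID, 0.432 CPM in DNMT1-AID and 0.0792 CPM in WT, and 538 of the 1009 (53.3%) were below 0.1 CPM in WT, against 6.65% of all genes tested. The level in UHRF1/DNMT1-AID was the highest of the 4 lines in 991 of them (98.2%, against 36.4% of all genes tested), a share that the choice of genes higher than in UHRF1-AID largely fixes, and in 799 (79.2%) both UHRF1-AID and DNMT1-AID already lay above WT, against 42.8% of all genes tested. The 269 genes that were lower had medians of 3.26 CPM in UHRF1/DNMT1-AID, 7.80 CPM in UHRF1-AID, 5.48 CPM in DNMT1-AID and 9.82 CPM in WT, and 191 of them (71.0%) were below WT in both other lines, against 37.5% of all genes. These shares describe levels and use the same UHRF1-AID libraries that entered the calls. A gene near 0 in WT is tested only if another line reads it, so the filter itself favours genes silent in WT among those called higher.

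**Figure D2:**
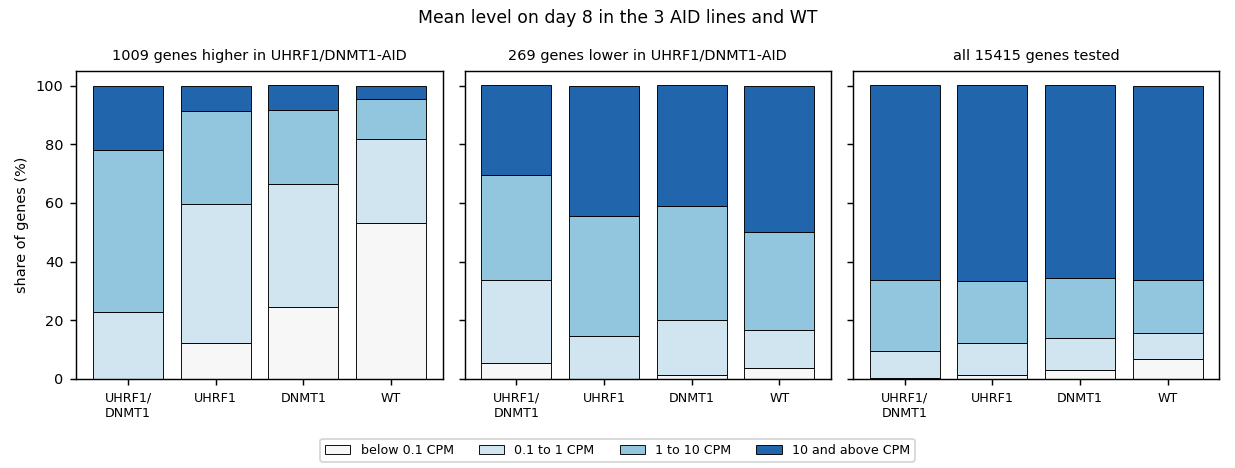
Share of genes (%) by mean level on day 8 in UHRF1/DNMT1-AID, UHRF1-AID, DNMT1-AID and WT, for the genes more than 2-fold higher (1009), those more than 2-fold lower (269) and all genes tested (15415). The white part, genes below 0.1 CPM, covers 53.3% of the higher genes in WT and 6.65% of all genes in WT.

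Germline genes were higher in a part of the list and lower in none. Of 40 tested genes for meiosis and for germ cell RNA silencing, 20 rose (50%, against 20.4% of all genes, and 17 of them by more than 2-fold) and 0 fell, with a median log2 fold change of 0.82, against -0.01 over all genes. In 20 of the 40 the 3 UHRF1/DNMT1-AID libraries lay wholly above those of UHRF1-AID, against 22.1% of all genes. Another 21 of the 61 genes listed had too few reads for a test, and a gene read almost only in UHRF1/DNMT1-AID can pass that filter only through it, so these counts describe the genes tested and not the list. Promoters of 4 genes known from germ cells are shown because they differ widely in CG sites, the sequence that UHRF1 and DNMT1 act on (RefSeq, GRCh38.p14, 250 bases before to 50 after the start site, on the gene's own strand, CG in capitals).
EZHIP: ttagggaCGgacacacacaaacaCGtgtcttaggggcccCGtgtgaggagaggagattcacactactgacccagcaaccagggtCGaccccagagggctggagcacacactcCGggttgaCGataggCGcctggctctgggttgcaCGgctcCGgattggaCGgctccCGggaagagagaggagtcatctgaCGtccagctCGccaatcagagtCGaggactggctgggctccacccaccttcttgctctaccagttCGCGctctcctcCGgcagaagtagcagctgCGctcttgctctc
DAZL: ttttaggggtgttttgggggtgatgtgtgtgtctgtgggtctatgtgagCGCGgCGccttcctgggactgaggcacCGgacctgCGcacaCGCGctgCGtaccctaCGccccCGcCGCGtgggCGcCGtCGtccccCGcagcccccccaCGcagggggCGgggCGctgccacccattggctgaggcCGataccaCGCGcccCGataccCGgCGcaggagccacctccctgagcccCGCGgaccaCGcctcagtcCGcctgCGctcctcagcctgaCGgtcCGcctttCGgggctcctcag
MAEL: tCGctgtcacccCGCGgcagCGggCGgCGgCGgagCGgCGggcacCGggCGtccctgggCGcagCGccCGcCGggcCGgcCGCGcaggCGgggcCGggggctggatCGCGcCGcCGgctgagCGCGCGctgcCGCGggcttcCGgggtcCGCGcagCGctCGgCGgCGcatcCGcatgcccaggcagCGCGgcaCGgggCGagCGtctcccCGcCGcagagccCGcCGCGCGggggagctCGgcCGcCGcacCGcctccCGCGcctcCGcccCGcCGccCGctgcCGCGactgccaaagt
TEX101: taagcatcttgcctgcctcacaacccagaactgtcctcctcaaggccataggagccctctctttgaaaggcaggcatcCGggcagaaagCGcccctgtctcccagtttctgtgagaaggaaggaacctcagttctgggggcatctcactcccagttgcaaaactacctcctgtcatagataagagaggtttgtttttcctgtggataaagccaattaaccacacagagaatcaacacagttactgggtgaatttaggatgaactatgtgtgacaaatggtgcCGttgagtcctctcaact
The windows lie at chrX:51406698-51406997 (+ strand), chr3:16605374-16605673 (- strand), chr1:166975332-166975631 (+ strand) and chr19:43388361-43388660 (+ strand). They hold 18 CG sites in EZHIP, 33 in DAZL, 60 in MAEL and 3 in TEX101, where the median over the 11942 tested genes with such a window is 25. Their methylation was not measured in these libraries.

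EZHIP (ENSG00000187690.4, chromosome X, 51406948 to 51408843) encodes an inhibitor of the polycomb methyltransferase PRC2 found in germ cells, and had 29.1, 41.3 and 39.01 CPM in UHRF1/DNMT1-AID, against 2.19, 1.5 and 1.59 CPM in UHRF1-AID. The lowest UHRF1/DNMT1-AID library was above 10 times the highest UHRF1-AID library (log2 fold change 4.37 ± 0.34, adjusted p = 3.66e-10), and DNMT1-AID and WT averaged 0.634 and 0.0305 CPM. DAZL (ENSG00000092345.14, chromosome 3, 16586792 to 16670306), an RNA-binding protein needed for germ cell development, had 6.93, 6.3 and 12.8 CPM in UHRF1/DNMT1-AID, against 0.283, 0.55 and 0.0325 CPM in UHRF1-AID, and no read in the 3 WT libraries. It was 30.3-fold higher (log2 fold change 4.92 ± 0.42, adjusted p = 9.71e-10), or 5.77 on the log2 scale without replicate 2 and 4.37 without replicate 3 of UHRF1-AID. MAEL, a piRNA pathway protein of spermatocytes, had 9.33, 9.62 and 15.8 CPM in UHRF1/DNMT1-AID, against 0.566, 1.03 and 0.846 CPM in UHRF1-AID (log2 fold change 3.83 ± 0.36, adjusted p = 2.28e-09). TDRD12, a tudor-domain piRNA factor, had 4.59, 6.63 and 7.37 CPM in UHRF1/DNMT1-AID, against 0.531, 0.66 and 0.651 CPM in UHRF1-AID (log2 fold change 3.33 ± 0.35). TEX101, a surface glycoprotein of male germ cells with the fewest CG sites of the 4 promoters, had 9.38, 10.8 and 9.18 CPM in UHRF1/DNMT1-AID, against 0.85, 1.14 and 1.98 CPM in UHRF1-AID (log2 fold change 2.88 ± 0.37). All 5 averaged below 1 CPM in DNMT1-AID and in WT, so the level in UHRF1/DNMT1-AID was the highest of the 4 lines in each.

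Cancer-testis antigens, proteins normally confined to the germline and often encoded on the X chromosome, rose in most of the members tested. Of 59 tested, 48 rose (81.4%, against 20.4% of all genes, and 40 of them by more than 2-fold) and 2 fell (3.39%, against 23.5%), with a median log2 fold change of 2.21. The other 15 of the 74 listed had too few reads, and as with the germline list the filter can be passed through UHRF1/DNMT1-AID alone, so the counts hold for the genes tested. Of the 40 tested members outside the MAGE families, 39 rose, and their median was 2.29. Of the 19 MAGE genes tested, 9 rose and 2 fell, with a median of 0.55. The summed level of all 74 listed antigens was 2071, 2039.8 and 2581 CPM in UHRF1/DNMT1-AID, against 1124, 1639 and 1409.6 CPM in UHRF1-AID, 809.8, 1003 and 874 CPM in DNMT1-AID and 606, 574 and 589 CPM in WT. These sums did not overlap between groups, and UHRF1-AID lay above DNMT1-AID, which lay above WT. Many of these genes have near-identical copies, between which the counting may have split or dropped reads, so the number of loci is larger than the number of independent measurements.

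TKTL1 (ENSG00000007350.17, chromosome X, 154295795 to 154330350), related to the enzyme transketolase, had 70.9, 78.6 and 143 CPM in UHRF1/DNMT1-AID, against 5.91, 7.01 and 3.77 CPM in UHRF1-AID, 11.4, 14.04 and 11.1 CPM in DNMT1-AID and 0.0915, 0 and 0.0337 CPM in WT. Its log2 fold change was 4.14 ± 0.38 (adjusted p = 1.66e-08). MAGEB1 had 19.1, 21.5 and 26.3 CPM in UHRF1/DNMT1-AID, against 6.23, 6.68 and 6.25 CPM in UHRF1-AID (log2 fold change 1.81 ± 0.19). SSX1, a transcriptional repressor known from the fusion gene of synovial sarcoma, had 17.5, 17.9 and 18.8 CPM in UHRF1/DNMT1-AID, against 2.41, 5.58 and 3.29 CPM in UHRF1-AID (log2 fold change 2.27 ± 0.26), with replicate 2 the highest of the UHRF1-AID libraries. PAGE2 had 19.1, 28.8 and 26.5 CPM in UHRF1/DNMT1-AID, against 1.38, 2.94 and 2.18 CPM in UHRF1-AID (log2 fold change 3.52 ± 0.32), and its near-identical copy PAGE2B a log2 fold change of 3.57 ± 0.28. Against these, MAGEA2 and its copy MAGEA2B, already read in WT at 65.7 and 64.4 CPM, were lower. MAGEA2 had 49.1, 43.7 and 48.1 CPM in UHRF1/DNMT1-AID, against 62.1, 71.8 and 67.5 CPM in UHRF1-AID (log2 fold change -0.52 ± 0.09, adjusted p = 1.05e-05).

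Among genes of at least 5 CPM on average whose libraries did not overlap, the 12 highest log2 fold changes included more genes that averaged below 1 CPM in WT. RHOXF2 and RHOXF2B, reproductive homeobox genes of the X chromosome that are near-identical copies, had the largest of these 12, 4.99 ± 0.42 and 4.79 ± 0.48 (5.93 for RHOXF2B without replicate 1 of UHRF1-AID). RHOXF2 had 7.19, 9.15 and 12.8 CPM in UHRF1/DNMT1-AID, against 0.283, 0.33 and 0.293 CPM in UHRF1-AID, and 0 reads in WT. PRSS50, a testis protease, had 24.8, 32.7 and 25.6 CPM in UHRF1/DNMT1-AID, against 0.425, 3.23 and 0.683 CPM in UHRF1-AID (log2 fold change 4.27 ± 0.46, or 5.62 without replicate 2 of UHRF1-AID). The overlapping gene ENSG00000206549 had a log2 fold change of 4.02 ± 0.40 (5.01 without that library), and reads of the 2 genes may not be separate. DPEP3, a testis dipeptidase, had 13.4, 21.7 and 17.7 CPM in UHRF1/DNMT1-AID, against 1.59, 1.61 and 1.04 CPM in UHRF1-AID (log2 fold change 3.64 ± 0.30). PRR20G had 43.6, 38.8 and 68.2 CPM in UHRF1/DNMT1-AID, against 2.55, 3.49 and 2.02 CPM in UHRF1-AID (log2 fold change 4.23 ± 0.28). KRTAP3-1, a hair keratin-associated protein, had 20.4, 25.2 and 46.9 CPM in UHRF1/DNMT1-AID, against 0.637, 3.85 and 1.5 CPM in UHRF1-AID (log2 fold change 3.96 ± 0.57, or 4.83 without replicate 2 of UHRF1-AID). In each of the 5 genes whose libraries are given here the lowest UHRF1/DNMT1-AID library was more than 5 times the highest UHRF1-AID library.

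On chromosome X 108 of 593 genes tested (18.2%) were more than 2-fold higher in UHRF1/DNMT1-AID, against 899 of 14809 autosomal genes (6.07%). With the cancer-testis antigens left out it was 57 of 523 (10.9%). Chromosome 19 followed, with 113 of 1174 (9.63%). The median log2 fold change over all its tested genes was 0.25, against 0.04 on X and -0.01 over all genes tested. The genes that were lower took 13 of 593 on X (2.19%) and 256 of 14809 on autosomes (1.73%). As with the germline list, a gene can pass the filter through UHRF1/DNMT1-AID alone, so these shares describe the genes tested and not the chromosomes.

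Single sensors of foreign nucleic acid were called in both directions. Of 26 tested, 9 rose (34.6%, against 20.4% of all genes) and 4 fell (15.4%, against 23.5%), with a median log2 fold change of 0.28. With the correction for GC content and gene length 14 rose and 4 fell. CGAS (ENSG00000164430.17, chromosome 6, 73413515 to 73452297), the enzyme that makes the second messenger cGAMP on cytosolic DNA, had 4.84, 3.19 and 5.52 CPM in UHRF1/DNMT1-AID, against 0.212, 0.33 and 0.325 CPM in UHRF1-AID, and averaged 0.191 CPM in DNMT1-AID and 0.0723 CPM in WT. It was 15.3-fold higher (log2 fold change 3.94 ± 0.48, adjusted p = 1.68e-07). STING1, the receptor of cGAMP, went the other way, with 22.3, 20.4 and 17.8 CPM in UHRF1/DNMT1-AID, against 35.8, 25.2 and 38.5 CPM in UHRF1-AID (log2 fold change -0.72 ± 0.20, adjusted p = 0.00477). ZBP1, a sensor of Z-form nucleic acid, had 191 reads in UHRF1/DNMT1-AID, against 16 in UHRF1-AID, and 0 in WT (log2 fold change 3.88 ± 0.68, or 4.72 without replicate 2 of UHRF1-AID). TREX1, the main cytosolic DNA exonuclease, had 35.1, 40.9 and 26.9 CPM in UHRF1/DNMT1-AID, against 17.5, 22.01 and 17.4 CPM in UHRF1-AID (log2 fold change 0.85 ± 0.13). The double-stranded RNA editor ADAR had 361, 360.3 and 334 CPM in UHRF1/DNMT1-AID, against 485, 426 and 454 CPM in UHRF1-AID (log2 fold change -0.37 ± 0.10, adjusted p = 0.00316). Each of the 3 libraries was lower than every UHRF1-AID library. IRF7, the transcription factor that drives interferon genes, had 631, 697 and 557 CPM in UHRF1/DNMT1-AID, against 257, 323 and 239.9 CPM in UHRF1-AID and was 2.3-fold higher (log2 fold change 1.20 ± 0.14, adjusted p = 7.15e-08).

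Type III interferon mRNA was higher, and the receptor pathway moved in both directions. Of 4 ligands tested, 3 rose, all of them lambda interferons, which signal through IFNLR1 and IL10RB in epithelia. IFNL1 (ENSG00000182393.3, chromosome 19, 39296407 to 39298673) had 8.92, 15.1 and 7.41 CPM in UHRF1/DNMT1-AID, against 1.13, 3.16 and 0.683 CPM in UHRF1-AID, with replicate 2 the highest in both lines, and 1.002, 1.58 and 1.37 CPM in DNMT1-AID and 0.595, 0.495 and 0.236 CPM in WT. Its log2 fold change was 2.67 ± 0.41 (adjusted p = 4.14e-06), or 3.52 without replicate 2 of UHRF1-AID. IFNL2 had 2.09, 3.61 and 2.86 CPM in UHRF1/DNMT1-AID, against 0.389, 0.257 and 0.52 CPM in UHRF1-AID (log2 fold change 2.85 ± 0.48, adjusted p = 1.41e-05), from 198 reads in UHRF1/DNMT1-AID and 34 in UHRF1-AID, and as a near-identical copy of IFNL3 its reads are uncertain. IFNA1, IFNB1, IFNG and IFNK had too few reads to be tested. Of 15 receptor and JAK-STAT genes 6 rose (40.0%, against 20.4% of all genes) and 2 fell (13.3%, against 23.5%), with a median log2 fold change of -0.09. Over both groups the counts were 9 higher and 2 lower of 19, 5 higher without replicate 3 of UHRF1-AID, and 5 higher and 6 lower with library-size scaling. IFNLR1 had 16.5, 13.8 and 14.9 CPM in UHRF1/DNMT1-AID, against 12.99, 12.9 and 9.86 CPM in UHRF1-AID. Its log2 fold change of 0.34 ± 0.14 (adjusted p = 0.0478) no longer passed without replicate 1 (0.27) or 3 (0.34) of UHRF1/DNMT1-AID or replicate 3 of UHRF1-AID (0.21), with library-size scaling (0.23), with the correction for GC content and gene length (0.33), with no filter on low counts (0.32) or in the fit on these 6 libraries alone (0.35). The kinases JAK1 and JAK2 were lower, with log2 fold changes of -0.41 ± 0.10 and -0.73 ± 0.16. The inhibitors USP18 and SOCS1 were higher, with log2 fold changes of 0.82 ± 0.20 and 0.79 ± 0.15, the call of SOCS1 being lost with the correction for GC content and gene length (0.18).

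Interferon-stimulated genes were higher as a group, on top of levels that UHRF1-AID already held above WT. Of 50 tested, 32 rose (64.0%, against 20.4% of all genes, and 11 of them by more than 2-fold) and 1 fell (2.0%, against 23.5%). Their median log2 fold change was 0.50, and with scaling by library size only 24 rose and 2 fell. The summed level was 38807, 43223 and 36713 CPM in UHRF1/DNMT1-AID, against 22170.1, 28998 and 21812 CPM in UHRF1-AID, 24989.7, 24983 and 26015 CPM in DNMT1-AID and 10694, 10570.1 and 10799 CPM in WT. The 3 libraries of UHRF1/DNMT1-AID lay above those of UHRF1-AID, of which replicate 2 was again the highest. Many interferon-stimulated promoters carry the response element read by ISGF3, whose core is searched here as GAAA, then any NN, then GAAA on either strand. The first match in 4 promoters is shown with 30 bases on either side (RefSeq, GRCh38.p14, + strand, the match in capitals), among them IFNL1 itself.
IFNL1: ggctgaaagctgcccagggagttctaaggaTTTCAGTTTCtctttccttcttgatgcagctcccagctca
ISG15: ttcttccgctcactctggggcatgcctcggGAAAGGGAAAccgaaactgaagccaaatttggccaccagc
ISG20: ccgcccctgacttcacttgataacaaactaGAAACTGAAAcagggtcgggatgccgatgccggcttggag
IFITM1: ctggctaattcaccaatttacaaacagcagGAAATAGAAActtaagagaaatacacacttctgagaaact
These stretches lie at chr19:39296163-39296232, chr1:1013354-1013423, chr15:88638917-88638986 and chr11:313970-314039. The matches begin 214, 113, 69 and 40 bases before the start site, and IFITM1 holds 2 that do not overlap. Of the 714 genes more than 2-fold higher that have a window in the table, 4.62% held the letters, against 2.23% of 179 lower genes, 2.87% of the 11942 tested genes and 3.65% of all 27195 promoters, so most of the higher genes have none in these 300 bases.

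ISG15 (ENSG00000187608.10, chromosome 1, 1001138 to 1014540), a ubiquitin-like modifier, stood at 5194, 6008 and 5616 CPM in UHRF1/DNMT1-AID, against 2105, 3094 and 2221 CPM in UHRF1-AID, 2571, 3200.0 and 2864 CPM in DNMT1-AID and 1167, 1119.6 and 1159 CPM in WT. It was 2.27-fold higher (log2 fold change 1.18 ± 0.23, adjusted p = 0.000152). ISG20, an exonuclease against viral RNA, had 73.7, 87 and 71.8 CPM in UHRF1/DNMT1-AID, against 29.2, 42.7 and 33.1 CPM in UHRF1-AID (log2 fold change 1.15 ± 0.16, adjusted p = 9.37e-07). IFITM1, a membrane protein that blocks viral entry, had 4944, 5256 and 4441 CPM in UHRF1/DNMT1-AID, against 1929, 3103 and 1826 CPM in UHRF1-AID and 149, 162 and 165 CPM in WT (log2 fold change 1.09 ± 0.19). OASL, an antiviral protein of the oligoadenylate synthetase family, had 296, 329 and 195 CPM in UHRF1/DNMT1-AID, against 102, 175 and 95.8 CPM in UHRF1-AID (log2 fold change 1.14 ± 0.21). TRIM21, an antibody receptor and ubiquitin ligase, had 152, 158 and 135 CPM in UHRF1/DNMT1-AID, against 81.3, 113 and 83.99 CPM in UHRF1-AID (log2 fold change 0.68 ± 0.12). In these 5 genes replicate 2 was the highest UHRF1-AID library and stayed below every UHRF1/DNMT1-AID library. In contrast OAS1, which makes the activator of RNase L, had 286, 323 and 201 CPM in UHRF1/DNMT1-AID, against 131, 215 and 139.6 CPM in UHRF1-AID, and its log2 fold change of 0.74 ± 0.30 did not pass (adjusted p = 0.0515). HERC6, a HECT-type ligase, was the member that fell, with 25.7, 25.99 and 24.9 CPM in UHRF1/DNMT1-AID, against 39.6, 35.8 and 38.3 CPM in UHRF1-AID (log2 fold change -0.57 ± 0.11).

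The APOBEC3 cytidine deaminases mutate foreign DNA and lie in a cluster on chromosome 22. They rose in 6 of 7 members (85.7%, against 20.4% of all genes), with a median log2 fold change of 0.94. APOBEC3G had 38.4, 40.6 and 24.4 CPM in UHRF1/DNMT1-AID, against 8.96, 13.6 and 12.9 CPM in UHRF1-AID and 0.0458, 0.045 and 0.202 CPM in WT (log2 fold change 1.54 ± 0.23, adjusted p = 3.81e-06). APOBEC3B had 34.3, 31.3 and 30.7 CPM in UHRF1/DNMT1-AID, against 17.6, 24.1 and 14.4 CPM in UHRF1-AID (log2 fold change 0.78 ± 0.15). APOBEC3A had 9.63, 8.73 and 8.05 CPM in UHRF1/DNMT1-AID, against 4.07, 5.21 and 3.16 CPM in UHRF1-AID (log2 fold change 1.09 ± 0.21). Members share similar sequence, so reads may have been split between members. Antigen presentation followed the same direction, with 18 of 31 genes higher (58.1%) and 0 lower (against 23.5% of all genes) and a median of 0.42. CD74, the invariant chain of MHC class II, had 105, 134 and 85.5 CPM in UHRF1/DNMT1-AID, against 35.7, 42.4 and 41.4 CPM in UHRF1-AID and 7.003, 6.48 and 5.84 CPM in WT (log2 fold change 1.44 ± 0.16, adjusted p = 1.99e-08). HLA-G, a class I molecule known from the placenta, had 15.8, 16.5 and 13.7 CPM in UHRF1/DNMT1-AID, against 6.41, 5.87 and 4.49 CPM in UHRF1-AID (log2 fold change 1.46 ± 0.23), and is uncertain for its likeness to the other class I genes. PSMB10, a catalytic subunit of the immunoproteasome, had 75.2, 93.9 and 70.7 CPM in UHRF1/DNMT1-AID, against 38.7, 49.5 and 42.6 CPM in UHRF1-AID (log2 fold change 0.88 ± 0.11).

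**Figure D3:**
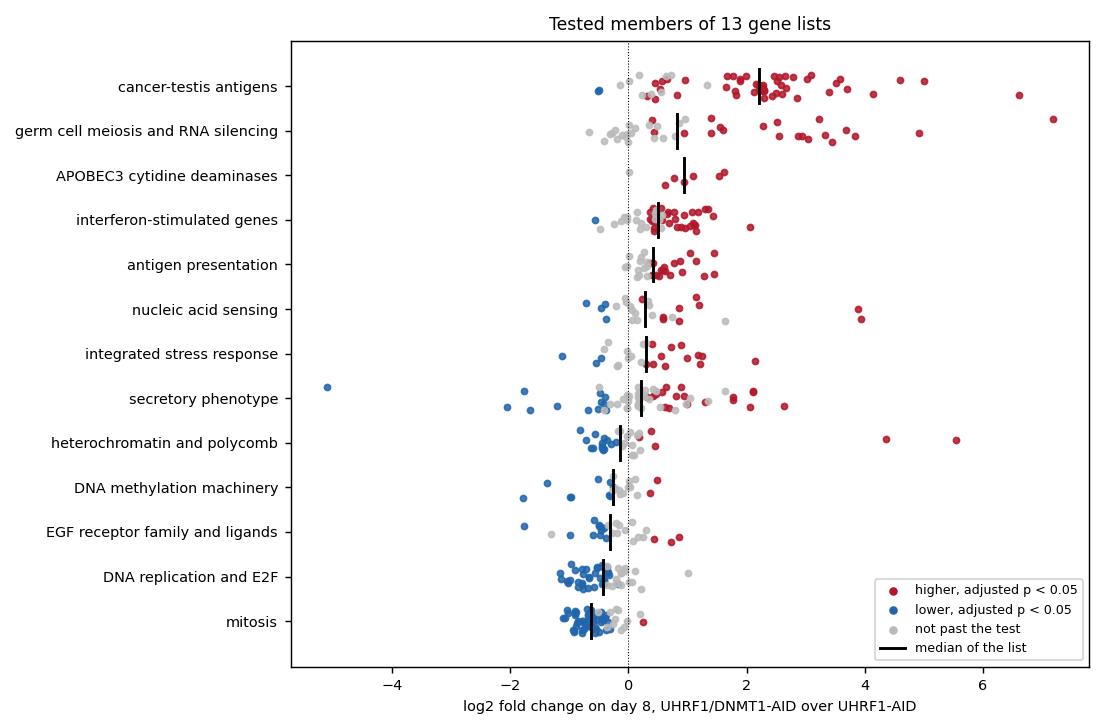
Log2 fold change on day 8 (UHRF1/DNMT1-AID over UHRF1-AID) of each tested member of 13 gene lists; red and blue points passed the test as higher and lower, grey points did not, and black bars are medians. The medians run from 2.21 for cancer-testis antigens to -0.63 for mitosis.

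Genes of the secretory phenotype as a whole stood near the background. Of 61 tested, 18 rose (29.5%, against 20.4% of all genes) and 12 fell (19.7%, against 23.5%, or 6 genes without replicate 1 of UHRF1-AID), with a median log2 fold change of 0.21. Of the 17 cytokines and chemokines 7 rose and 0 fell, with a median of 0.79, whereas of 16 growth factors and binding proteins 3 rose and 5 fell. IL32 (ENSG00000008517.19, chromosome 16, 3065297 to 3082192), a cytokine of epithelial and lymphoid cells, had 23.7, 31.6 and 20.1 CPM in UHRF1/DNMT1-AID, against 6.05, 6.13 and 6.02 CPM in UHRF1-AID, and averaged 2.26 CPM in DNMT1-AID and 0.147 CPM in WT. It was 4.14-fold higher (log2 fold change 2.05 ± 0.26, adjusted p = 1.63e-07). CCL5, a chemokine for T cells, had 8.92, 12.5 and 9.5 CPM in UHRF1/DNMT1-AID, against 2.09, 4.04 and 2.9 CPM in UHRF1-AID (log2 fold change 1.78 ± 0.37, adjusted p = 0.000205). The collagenase MMP13 had 14.4, 12.5 and 11.5 CPM in UHRF1/DNMT1-AID, against 1.38, 2.9 and 1.89 CPM in UHRF1-AID (log2 fold change 2.64 ± 0.32). The gelatinase MMP9 had 4.79, 4.2 and 6.48 CPM in UHRF1/DNMT1-AID, against 1.17, 0.77 and 1.63 CPM in UHRF1-AID (log2 fold change 2.11 ± 0.34). Their inhibitor TIMP1 was higher too, with 1118, 1064 and 1018 CPM in UHRF1/DNMT1-AID, against 512, 619.5 and 473 CPM in UHRF1-AID (log2 fold change 1.00 ± 0.10). TNFRSF1B, a TNF receptor, had 45.8, 64.4 and 54.6 CPM in UHRF1/DNMT1-AID, against 25.6, 34.2 and 34.1 CPM in UHRF1-AID (log2 fold change 0.81 ± 0.17).

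Other secreted factors were lower or did not pass the test. The collagenase MMP1 had 4.59, 6.89 and 6.12 CPM in UHRF1/DNMT1-AID, against 21.3, 5.87 and 13.6 CPM in UHRF1-AID, so that the lines overlapped, and its log2 fold change of -1.21 ± 0.39 (adjusted p = 0.012) was lost without replicate 1 of UHRF1/DNMT1-AID (-1.07) or replicate 1 of UHRF1-AID (-0.73) and in the fit on these 6 libraries alone. IGFBP3, which binds insulin-like growth factors, had 7.95, 7.94 and 6.92 CPM in UHRF1/DNMT1-AID, against 25.03, 6.79 and 40.2 CPM in UHRF1-AID, again with replicate 2 of UHRF1-AID at the level of UHRF1/DNMT1-AID (log2 fold change -1.66 ± 0.43, adjusted p = 0.00252, or -1.07 without replicate 3 of UHRF1-AID, and not called by the fit on these 6 libraries alone). IGFBP4 had 5.61, 10.2 and 10.9 CPM in UHRF1/DNMT1-AID, against 8.21, 4.29 and 11.3 CPM in UHRF1-AID (log2 fold change 0.17 ± 0.40, adjusted p = 0.771), with overlap between the lines. ICAM1, an adhesion molecule for leukocytes, had 21.3, 21.8 and 15.5 CPM in UHRF1/DNMT1-AID, against 13.8, 12.7 and 15.8 CPM in UHRF1-AID (log2 fold change 0.46 ± 0.20, adjusted p = 0.0577). Among NF-kappa B genes 9 of 24 rose (37.5%, against 20.4% of all genes) and 2 fell (8.33%, against 23.5%). NFKB2, the subunit of the non-canonical pathway, had 288, 314 and 263 CPM in UHRF1/DNMT1-AID, against 142, 159 and 152 CPM in UHRF1-AID (log2 fold change 0.93 ± 0.10, adjusted p = 1.01e-08). Its partner RELB had 46.4, 44.5 and 58.9 CPM in UHRF1/DNMT1-AID, against 31.8, 33.2 and 31.4 CPM in UHRF1-AID (log2 fold change 0.64 ± 0.11). The inhibitor NFKBIA, itself a target of the pathway, had 67.3, 59.1 and 71.7 CPM in UHRF1/DNMT1-AID, against 39.5, 37.9 and 34.1 CPM in UHRF1-AID (log2 fold change 0.83 ± 0.13).

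Replication genes were lower in most of the list. Of 52 genes of DNA replication and the E2F network, 36 fell (69.2%, against 23.5% of all genes) and 0 rose, with a median log2 fold change of -0.42. Their summed level was 2929.7, 2814 and 3475 CPM in UHRF1/DNMT1-AID, against 4265, 3469 and 3941 CPM in UHRF1-AID, 4179, 4153 and 4180.1 CPM in DNMT1-AID and 5670.4, 5865 and 5707 CPM in WT. Replicate 3 of UHRF1/DNMT1-AID lay just above replicate 2 of UHRF1-AID, so the sums of the 2 lines overlapped. MCM2 (ENSG00000073111.14, chromosome 3, 127598410 to 127622436), a subunit of the replicative helicase, had 55.4, 51.5 and 68.9 CPM in UHRF1/DNMT1-AID, against 148, 91.3 and 122 CPM in UHRF1-AID (log2 fold change -1.04 ± 0.12, adjusted p = 3.42e-08), and WT held 228, 252 and 235 CPM. MCM6 and MCM7, of the same helicase, were lower by log2 fold changes of -0.76 ± 0.08 and -0.85 ± 0.09. RRM2, the regulated subunit of ribonucleotide reductase, had 106, 93 and 127 CPM in UHRF1/DNMT1-AID, against 260.0, 192 and 209 CPM in UHRF1-AID (log2 fold change -1.02 ± 0.11, adjusted p = 8.93e-09). In bulk samples a smaller share of cycling cells and less of the mRNA per cell cannot be told apart.

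Mitotic genes fell further. Of 60 tested, 48 fell (80.0%, against 23.5% of all genes) and 1 rose (1.67%, against 20.4%), with a median of -0.63. In 45 of the 60 the UHRF1/DNMT1-AID libraries lay wholly below those of UHRF1-AID, against 22.9% of all genes. The sums were 1798, 1478 and 1877 CPM in UHRF1/DNMT1-AID, against 2943, 2265 and 2388 CPM in UHRF1-AID, 2537, 2643 and 2606 CPM in DNMT1-AID and 4331, 4326 and 4159.9 CPM in WT. MAD2L1 (ENSG00000164109.14, chromosome 4, 120055623 to 120066858), a spindle checkpoint protein, had 17.4, 16.5 and 27.4 CPM in UHRF1/DNMT1-AID, against 48.9, 39.7 and 42.97 CPM in UHRF1-AID (log2 fold change -1.10 ± 0.12, adjusted p = 1.56e-08). BUB1B, its partner in the checkpoint, had 15.9, 13.7 and 17.3 CPM in UHRF1/DNMT1-AID, against 36.1, 25.4 and 33.4 CPM in UHRF1-AID (log2 fold change -1.02 ± 0.11). BUB1, a kinase of the same checkpoint, had 22.5, 19.7 and 27.9 CPM in UHRF1/DNMT1-AID, against 50.9, 38.4 and 38.8 CPM in UHRF1-AID (log2 fold change -0.87 ± 0.10). BIRC5, survivin of the chromosomal passenger complex, had 78.5, 63.1 and 90.5 CPM in UHRF1/DNMT1-AID, against 169, 125 and 134 CPM in UHRF1-AID (log2 fold change -0.88 ± 0.10). UBE2C, a ubiquitin carrier of the anaphase-promoting complex, was the member called higher, with 70.3, 64.7 and 85.03 CPM in UHRF1/DNMT1-AID, against 72.8, 53.6 and 57.9 CPM in UHRF1-AID (log2 fold change 0.26 ± 0.09), and it overlapped between the lines. That value turned to -0.04 with the correction for GC content and gene length, and no longer passed with library-size scaling, in the fit on these 6 libraries alone, or without replicate 3 of UHRF1/DNMT1-AID (0.13) or replicates 2 (0.17) or 3 (0.21) of UHRF1-AID.

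Of 12 cell-cycle inhibitors 5 were lower (41.7%, against 23.5% of all genes) and 2 higher (16.7%, against 20.4%). Their median log2 fold change was -0.27, but CDKN1A and CDKN2A did not pass the test. CDKN1A, or p21, had 235, 266 and 306 CPM in UHRF1/DNMT1-AID, against 277, 288 and 297 CPM in UHRF1-AID (log2 fold change -0.09 ± 0.13, adjusted p = 0.58). CDKN2A, the p16 gene, had 109, 113 and 135 CPM in UHRF1/DNMT1-AID, against 119.7, 86.8 and 109 CPM in UHRF1-AID (log2 fold change 0.18 ± 0.11, adjusted p = 0.205). Both genes overlapped between the lines, and an adjusted p over the threshold does not show equal levels. CDKN1C, or p57, an imprinted inhibitor, was higher, with 112, 223 and 121 CPM in UHRF1/DNMT1-AID, against 57.9, 67.98 and 65.4 CPM in UHRF1-AID (log2 fold change 1.26 ± 0.16, adjusted p = 3.38e-07). CDKN1B, or p27, was lower, with 35.1, 26.6 and 27.6 CPM in UHRF1/DNMT1-AID, against 45.6, 39.4 and 42.97 CPM in UHRF1-AID (log2 fold change -0.52 ± 0.10), as was RBL2, a relative of RB1 (log2 fold change -0.49 ± 0.09). MYC had 40.6, 32.96 and 38.1 CPM in UHRF1/DNMT1-AID, against 54.98, 63.6 and 64.3 CPM in UHRF1-AID (log2 fold change -0.71 ± 0.15, adjusted p = 0.000447). TFAP4, a target of MYC, had 14.7, 12.9 and 14.7 CPM in UHRF1/DNMT1-AID, against 17.3, 12.95 and 16.7 CPM in UHRF1-AID (log2 fold change -0.15 ± 0.13, adjusted p = 0.359).

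The replication-dependent histone genes ran against the replication list. Of 34 tested, 13 rose (38.2%, against 20.4% of all genes, or 8 genes without replicate 3 of UHRF1/DNMT1-AID) and 0 fell (against 23.5%). Their median was 0.38, in libraries selected for poly-A, whereas most histone mRNAs carry no poly-A tail. H4C9 had 62.3, 69.8 and 84.9 CPM in UHRF1/DNMT1-AID, against 33.6, 31.6 and 35.3 CPM in UHRF1-AID (log2 fold change 1.11 ± 0.22). H3C10 had 9.07, 10.9 and 10.7 CPM in UHRF1/DNMT1-AID, against 3.86, 3.45 and 4.001 CPM in UHRF1-AID (log2 fold change 1.44 ± 0.21). Of the 13 mRNAs encoded in mitochondria 8 rose (61.5%, against 20.4% of all genes) and 0 fell. Without replicates 1 or 2 of UHRF1/DNMT1-AID or replicates 1 or 3 of UHRF1-AID, 3 or 4 rose. Genes of the mitochondrial genome took 7.72% to 10.8% of all reads in UHRF1/DNMT1-AID and 4.68% to 7.41% in UHRF1-AID. MT-CO1, a subunit of cytochrome c oxidase, had 25253, 28809.5 and 19388 CPM in UHRF1/DNMT1-AID, against 9945, 16451 and 10694 CPM in UHRF1-AID (log2 fold change 0.99 ± 0.27, adjusted p = 0.00416). CPM values are relative to the whole library, and the part of this share in the other results was not tested. The ribosomal proteins gave 18 of 83 higher (21.7%, near the 20.4% of all genes) and 6 lower (7.23%, against 23.5%). With library-size scaling the counts were 15 higher and 24 lower.

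In the integrated stress response the factor ATF4 answers amino acid and folding stress. Of 25 such genes tested, 12 rose (48%, against 20.4% of all genes) and 3 fell (against 23.5%), with a median of 0.30. With library-size scaling 11 rose and 6 fell, and with the correction for GC content and gene length 10 rose and 4 fell. ATF4 had 349, 289 and 269 CPM in UHRF1/DNMT1-AID, against 189, 212 and 191 CPM in UHRF1-AID (log2 fold change 0.61 ± 0.09, adjusted p = 1.01e-06). Its target ATF3 had 18.9, 16.8 and 11.96 CPM in UHRF1/DNMT1-AID, against 6.41, 7.34 and 6.18 CPM in UHRF1-AID (log2 fold change 1.25 ± 0.17). CHAC1, a glutathione-degrading target, had 23.7, 19.8 and 26.01 CPM in UHRF1/DNMT1-AID, against 12.1, 9.58 and 9.04 CPM in UHRF1-AID (log2 fold change 1.18 ± 0.19). PPP1R15A, which reverses the block on translation, had 73.4, 76.8 and 55.1 CPM in UHRF1/DNMT1-AID, against 39.9, 41.5 and 42.9 CPM in UHRF1-AID (log2 fold change 0.72 ± 0.11). In all 4 genes the lines did not overlap. PSPH and SHMT2, enzymes of serine and glycine metabolism in the same list, fell by 0.55 and 0.46 on the log2 scale.

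Among the 12 largest decreases, under the same limits, were growth factors and signalling genes. KITLG, the ligand of the receptor KIT, had 141, 99.6 and 96.5 CPM in UHRF1/DNMT1-AID, against 548, 309.9 and 539 CPM in UHRF1-AID (log2 fold change -2.05 ± 0.23, adjusted p = 9.71e-08). EREG (ENSG00000124882.4, chromosome 4, 74365145 to 74388749), or epiregulin, a ligand of the EGF receptor, had 16.4, 10.6 and 21.3 CPM in UHRF1/DNMT1-AID, against 59.8, 50.8 and 54.3 CPM in UHRF1-AID, 122, 115 and 102 CPM in DNMT1-AID and 608, 556 and 511 CPM in WT. It was 3.41-fold lower (log2 fold change -1.77 ± 0.14, adjusted p = 6.72e-11), and the order of the 4 lines ran from WT down to UHRF1/DNMT1-AID with no overlap between neighbours. PDE4B, a cAMP phosphodiesterase, had 24.9, 13.6 and 18.2 CPM in UHRF1/DNMT1-AID, against 84.2, 39.5 and 70.3 CPM in UHRF1-AID (log2 fold change -1.78 ± 0.26). NT5E, or CD73, which makes adenosine outside the cell, had 12.9, 10.4 and 13.97 CPM in UHRF1/DNMT1-AID, against 47.7, 26.6 and 38 CPM in UHRF1-AID (log2 fold change -1.59 ± 0.28). ADGRF1, an adhesion receptor, had 28.7, 9.03 and 18.8 CPM in UHRF1/DNMT1-AID, against 71.2, 38.7 and 81.7 CPM in UHRF1-AID (log2 fold change -1.77 ± 0.34), a call that the fit on these 6 libraries alone does not make. RFLNA, a filamin partner, had 2.9, 2.14 and 2.13 CPM in UHRF1/DNMT1-AID, against 9.56, 5.36 and 7.97 CPM in UHRF1-AID (log2 fold change -1.68 ± 0.21). In KITLG, PDE4B, NT5E, ADGRF1 and RFLNA replicate 2 was the lowest UHRF1-AID library, still above every UHRF1/DNMT1-AID library. Of the 26 genes of the EGF receptor family, its ligands and feedback, 11 fell (42.3%, against 23.5% of all genes) and 3 rose (11.5%, against 20.4%). Their median was -0.31, and 6 fell without replicate 2 of UHRF1/DNMT1-AID and 5 without replicate 1 of UHRF1-AID. ERRFI1, a feedback inhibitor of that receptor, had 122, 96.9 and 125 CPM in UHRF1/DNMT1-AID, against 249.8, 199 and 235 CPM in UHRF1-AID (log2 fold change -0.99 ± 0.17).

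In a further 4 of the 12, the size of the decrease depended on which UHRF1-AID library was read. TMEM200A had 12.8, 6.63 and 10.4 CPM in UHRF1/DNMT1-AID, against 86.1, 14.2 and 55.6 CPM in UHRF1-AID (log2 fold change -2.39 ± 0.53, or -1.83 without replicate 1 of UHRF1-AID, and not called by the fit on these 6 libraries alone). ETV1, an ETS transcription factor, had 7.44, 6.76 and 9.62 CPM in UHRF1/DNMT1-AID, against 56.2, 15.7 and 49.9 CPM in UHRF1-AID (log2 fold change -2.35 ± 0.45). HS3ST1, a heparan sulphotransferase, had 13.05, 8.61 and 9.62 CPM in UHRF1/DNMT1-AID, against 68.5, 19.6 and 38.2 CPM in UHRF1-AID (log2 fold change -2.02 ± 0.42). In all 3 genes replicate 2 of UHRF1-AID lay near UHRF1/DNMT1-AID and replicates 1 and 3 far above. PXDN, a peroxidase of the matrix, had 0.306, 0.882 and 2.78 CPM in UHRF1/DNMT1-AID, against 5.13, 4.99 and 29.9 CPM in UHRF1-AID (log2 fold change -3.28 ± 1.11, adjusted p = 0.0189), with replicate 3 the highest in both lines. The value was -4.43 without replicate 3 of UHRF1/DNMT1-AID, and the call was lost without replicate 1 (-2.86) or 2 (-3.04) of UHRF1/DNMT1-AID or replicate 3 of UHRF1-AID (-1.88) and in the fit on these 6 libraries alone.

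PUDP (ENSG00000130021.15, chromosome X, 6667865 to 7148158), a pseudouridine phosphatase gene near the tip of chromosome X, had 0, 0 and 0 CPM in UHRF1/DNMT1-AID, against 20.5, 0.0734 and 18.1 CPM in UHRF1-AID. Over days 2, 6 and 8 it had 1 read in the 9 UHRF1/DNMT1-AID libraries together and at most 3 reads in replicate 2 of UHRF1-AID, against at least 449 reads in replicates 1 and 3 of UHRF1-AID and at least 369 in every DNMT1-AID and WT library. Its neighbour STS, steroid sulphatase, chosen after its values were seen, gave the same pattern, with 0 reads in UHRF1/DNMT1-AID, at most 1 in replicate 2 of UHRF1-AID, at least 124 in replicates 1 and 3 of UHRF1-AID and at least 70 elsewhere. Taking 3 reads for UHRF1/DNMT1-AID as a group on day 8, PUDP was at least 300.0-fold lower and STS at least 94.5-fold lower. The pattern was the same on all 3 days. The study states that its AID lines generally had 3 clones per group. The labels do not say whether replicate numbers stand for these clones, nor whether replicate 2 of UHRF1-AID comes from a clone related to UHRF1/DNMT1-AID. The UHRF1-AID group thus holds libraries of both kinds for these genes, and its mean and the folds against it depend on that mix. Replicate 2 of UHRF1-AID, without a DNMT1 tag, held almost none of these reads, while every DNMT1-AID library, with that tag, held them. The cause of the pattern was not tested.

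Other genes of the DNA methylation machinery were more often lower than higher. Of 23 genes tested 9 fell (39.1%, against 23.5% of all genes), DNMT1 and UHRF1 among them, and 2 rose (8.7%, against 20.4%). In the fit on these 6 libraries alone 4 fell and 1 rose. HELLS, the chromatin remodeller of DNA methylation, had 17.9, 13.6 and 18.04 CPM in UHRF1/DNMT1-AID, against 35.9, 26.2 and 36.3 CPM in UHRF1-AID (log2 fold change -0.99 ± 0.13, adjusted p = 3.3e-07). Its activator CDCA7 had 9.58, 3.36 and 8.58 CPM in UHRF1/DNMT1-AID, against 20.7, 16.5 and 18.3 CPM in UHRF1-AID (log2 fold change -1.38 ± 0.20, adjusted p = 2.25e-06). MBD2, a reader of methylated CG, was higher, with 76.4, 69.7 and 71.5 CPM in UHRF1/DNMT1-AID, against 52.3, 55.3 and 48.2 CPM in UHRF1-AID (log2 fold change 0.48 ± 0.08). Of 31 heterochromatin and polycomb genes 14 fell (45.2%) and 5 rose (16.1%). With the correction for GC content and gene length 7 fell and 9 rose, so the balance of this list was not stable. SUV39H1, a histone H3 lysine 9 methyltransferase, had 6.93, 9.03 and 7.29 CPM in UHRF1/DNMT1-AID, against 16.96, 11.3 and 12.8 CPM in UHRF1-AID (log2 fold change -0.82 ± 0.14). SUZ12 of PRC2 had 37, 36.5 and 41.9 CPM in UHRF1/DNMT1-AID, against 60.9, 51.6 and 58.7 CPM in UHRF1-AID (log2 fold change -0.57 ± 0.08). ZFP57, a zinc finger protein that guards imprints, had 129 reads in UHRF1/DNMT1-AID and 3 in UHRF1-AID (54.3-fold, 95% counting interval 18.2 to 267).

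Genes known to be methylated in colon cancer rose in 16 of the 38 tested (42.1%, against 20.4% of all genes), with a median of 0.64. They fell in 5 (13.2%, against 23.5%), or in 3 without replicate 1 of either line and 2 without replicate 3 of UHRF1-AID. The list holds 58 protein-coding genes, and those not tested had too few reads. As the filter can be passed through UHRF1/DNMT1-AID alone, the counts hold for the genes tested. UCHL1, a deubiquitinase of neurons, had 33.6, 41.02 and 56.1 CPM in UHRF1/DNMT1-AID, against 8.11, 10.4 and 7.09 CPM in UHRF1-AID and 0 reads in WT (log2 fold change 2.36 ± 0.22, adjusted p = 4.66e-09). UNC5C, a netrin receptor, had 16.1, 22.1 and 21.3 CPM in UHRF1/DNMT1-AID, against 3.65, 6.31 and 4.36 CPM in UHRF1-AID (log2 fold change 2.06 ± 0.21). HLTF, a helicase of replication forks, fell to 28.7, 25.9 and 25.6 CPM in UHRF1/DNMT1-AID, against 54.6, 42.6 and 57.3 CPM in UHRF1-AID (log2 fold change -0.95 ± 0.09). Imprinted genes gave 8 of 27 higher (29.6%, against 20.4% of all genes, or 5 genes without replicate 2 of UHRF1/DNMT1-AID) and 3 lower (11.1%, against 23.5%), or 4 and 7 with library-size scaling. NNAT, an imprinted gene of the brain, had 10.2, 14.02 and 11.9 CPM in UHRF1/DNMT1-AID, against 1.38, 1.58 and 2.02 CPM in UHRF1-AID (log2 fold change 2.86 ± 0.30). Among genes derived from endogenous retroviruses and retrotransposons, 7 of 18 rose (38.9%, against 20.4% of all genes) and 4 fell (22.2%, near the 23.5%). PNMA5 had 80.9, 134 and 107 CPM in UHRF1/DNMT1-AID, against 18.4, 24.1 and 18.1 CPM in UHRF1-AID (log2 fold change 2.41 ± 0.25). L1TD1, derived from a LINE-1 element, had 3.01, 2.73 and 3.74 CPM in UHRF1/DNMT1-AID, against 0.425, 0.404 and 0.26 CPM in UHRF1-AID (log2 fold change 3.11 ± 0.54). The repeats themselves are not counted in these files.

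Identity genes of the gut moved in both directions. Of 48 intestinal differentiation genes listed 21 were tested, of which 9 rose (42.9%, against 20.4% of all genes) and 2 fell (9.52%, against 23.5%). With the correction for GC content and gene length 7 of these rose and 0 fell. As the filter can be passed through UHRF1/DNMT1-AID alone, the counts hold for the genes tested. CDX2, the intestinal homeobox factor, had 95.4, 154 and 85.8 CPM in UHRF1/DNMT1-AID, against 58.5, 82.2 and 64.4 CPM in UHRF1-AID (log2 fold change 0.71 ± 0.14, adjusted p = 0.000131), a call not made by the fit on these 6 libraries alone. ANPEP, the brush border aminopeptidase, had 10.6, 10.5 and 11.5 CPM in UHRF1/DNMT1-AID, against 3.86, 2.94 and 4.75 CPM in UHRF1-AID (log2 fold change 1.49 ± 0.30). In the WNT pathway 10 of 27 rose and 5 fell, of which 1 to 3 were left without replicates 2 or 3 of UHRF1/DNMT1-AID or replicates 1 or 3 of UHRF1-AID. ASCL2, a factor of intestinal stem cells, had 3.92, 10.1 and 5.6 CPM in UHRF1/DNMT1-AID, against 0.212, 0.183 and 0.358 CPM in UHRF1-AID (log2 fold change 4.66 ± 0.63, adjusted p = 9.51e-07), or 4.00 with the correction for GC content and gene length. TCF7L2, the WNT transcription factor, had 104, 95.4 and 95.9 CPM in UHRF1/DNMT1-AID, against 174, 131 and 158 CPM in UHRF1-AID (log2 fold change -0.65 ± 0.16). Of 55 keratins 31 were tested, under the same limit of the filter, and 12 of these rose (38.7%) and 1 fell (3.23%). KRT17, a keratin of stressed epithelia, had 24.1, 31.8 and 30.03 CPM in UHRF1/DNMT1-AID, against 4.74, 10.3 and 6.7 CPM in UHRF1-AID (log2 fold change 1.98 ± 0.26). KRT18, a keratin of simple epithelia, had 1883, 2132 and 2265 CPM in UHRF1/DNMT1-AID, against 1114, 1430.0 and 1424 CPM in UHRF1-AID (log2 fold change 0.66 ± 0.11). Of 37 HOX genes, which set position along the body axis, 10 rose and 6 fell, shares of 27.0% and 16.2% near the 20.4% and 23.5% of all genes (10 fell without replicate 2 of UHRF1-AID), or 8 and 11 with the correction for GC content and gene length. HOXC10 had 7.34, 6.89 and 10.8 CPM in UHRF1/DNMT1-AID, against 2.44, 2.86 and 2.9 CPM in UHRF1-AID (log2 fold change 1.61 ± 0.25). HOXA9 had 45.7, 49.97 and 47.1 CPM in UHRF1/DNMT1-AID, against 79.02, 63.5 and 90.95 CPM in UHRF1-AID (log2 fold change -0.71 ± 0.09).

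The same 2 lines were set side by side on days 2 and 6, with other libraries. On day 2, 593 genes (3.85%) were more than 2-fold higher in UHRF1/DNMT1-AID and 37 (0.24%) lower, and on day 6 511 (3.31%) and 36 (0.234%). Of the 1009 genes higher on day 8, 835 had the same sign on day 2 and 956 on day 6, and 247 and 513 of them passed the test there in the same direction (24.5% and 50.8%, against 12.1% and 5.41% of all genes tested). Of the 269 lower on day 8, 157 had the same sign on day 2 and 232 on day 6, and 26 and 81 passed (9.67% and 30.1%, against 5.6% and 5.39%). The difference itself was tested between days, taking all libraries as independent. It was more than 2-fold higher on day 8 than on day 2 in 245 genes (1.59%) and more than 2-fold lower in 529 (3.43%). That test reuses the day 8 libraries, so the shares among genes called on day 8 (190 of 1009 higher genes, where 7.88% of all genes passed upward at any fold, and 175 of 269 lower genes, where 17.7% passed downward) are a description.

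**Figure D4:**
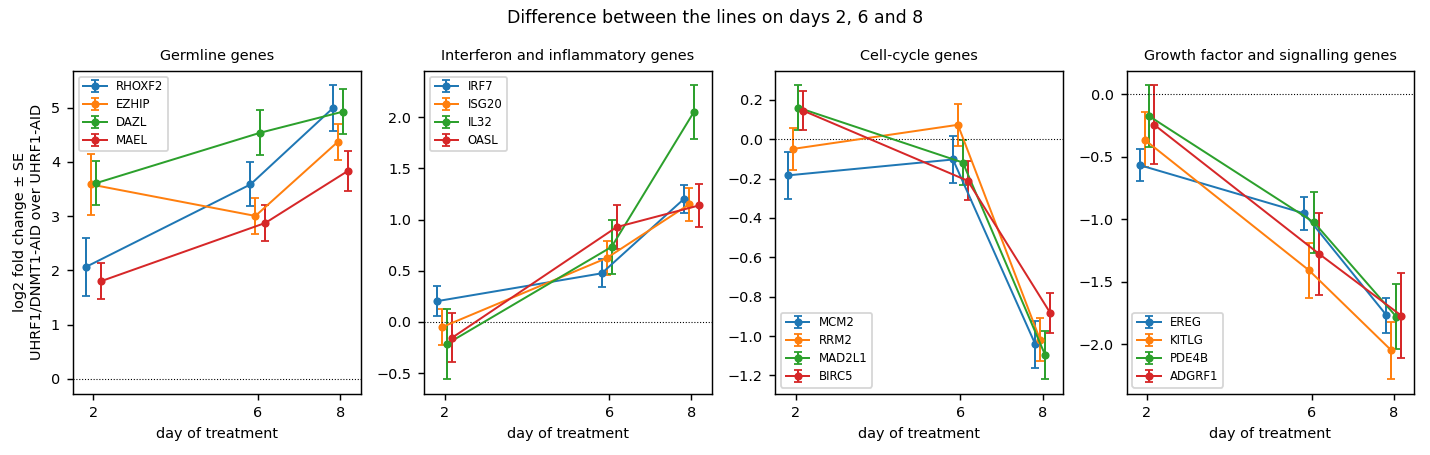
Log2 fold change ± SE of UHRF1/DNMT1-AID over UHRF1-AID on days 2, 6 and 8 of Dox/Auxin for 16 named genes in 4 groups; each panel has its own vertical scale and points are shifted sideways to keep bars apart. DAZL stood at 3.61 on day 2 and 4.92 on day 8, while RRM2 stood at -0.05, 0.07 and -1.02 on days 2, 6 and 8.

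Some germline genes were already apart on day 2. On that day 10 of the 40 tested members of the germ cell list were higher and 1 lower, and 25 of the 59 cancer-testis antigens were higher and 0 lower, against 12.1% and 5.6% of all genes. TEX101 stood at a log2 fold change of 0.60 that did not pass (adjusted p = 0.382). DAZL had log2 fold changes of 3.61, 4.54 and 4.92 ± 0.42 on days 2, 6 and 8, and EZHIP 3.58, 3.0 and 4.37 ± 0.34, with no change between days 2 and 8 that passed (adjusted p = 0.116 and 0.531). MAEL and RHOXF2 moved further apart, by 2.03 and 2.93 on the log2 scale between day 2 and day 8 (adjusted p = 0.0024 and 0.00404). Over the cancer-testis antigens the median log2 fold change was 1.1, 1.95 and 2.21 on days 2, 6 and 8.

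Cell-cycle genes differed most on day 8, and some were lower on day 2 already. On day 2, 12 of 60 mitotic genes were lower and 5 higher, and 8 of 52 replication genes lower and 1 higher. Over all genes 5.6% were lower and 12.1% higher on that day. On day 6, 0 mitotic genes were lower and 1 higher, and 1 replication gene was lower and 2 were higher. Over the mitosis list the medians for days 2, 6 and 8 were -0.10, 0.09 and -0.63, and over the replication list -0.11, 0.07 and -0.42. The fall between day 2 and day 8 passed the test in 30 of 60 mitotic genes and 21 of 52 replication genes, against 17.7% of all genes. MAD2L1 stood at 0.16, -0.12 and -1.10 ± 0.12 (change -1.26, adjusted p = 1.76e-06), and MCM2 at -0.18, -0.10 and -1.04 ± 0.12 (change -0.86, adjusted p = 0.000269).

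Some interferon genes moved further apart. Over the interferon-stimulated genes the median was -0.04, 0.43 and 0.50 on days 2, 6 and 8, but the change between day 2 and day 8 passed upward in 8 of 50 and downward in 2, against 7.88% and 17.7% of all genes. IRF7 stood at 0.20, 0.47 and 1.20 ± 0.14 (change 1.00, adjusted p = 0.00044), ISG20 at -0.05, 0.62 and 1.15 ± 0.16 (change 1.20, adjusted p = 0.000291) and IL32 at -0.21, 0.73 and 2.05 ± 0.26 (change 2.26, adjusted p = 0.000176). IFNL1 held 3 reads in UHRF1/DNMT1-AID and 7 in UHRF1-AID on day 2, too few to set a fold by, 230 and 68 on day 6, and 718 and 139 on day 8. EREG stood at -0.57, -0.95 and -1.77 ± 0.14 on days 2, 6 and 8 (change -1.20, adjusted p = 1.96e-05). KITLG stood at -0.36, -1.41 and -2.05 ± 0.23 (change -1.69, adjusted p = 0.000245).

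The genes that moved also differed in the shape of their transcripts. The medians given here cover the genes with a promoter window, 714 of the 1009 higher, 179 of the 269 lower and 11942 of the 15415 tested. Genes more than 2-fold higher had a median GC content of 53.7% and a median exonic length of 3207.5 bases. Those more than 2-fold lower had 43.9% and 5858 bases, and all tested genes with a window 48.8% and 5181 bases. With the correction for GC content and gene length 834 were higher and 249 lower, and 793 of the 1009 remained. In the promoter windows the median number of CG sites was 18 for higher genes, 20 for lower genes and 25 for all tested genes with a window. The 716 tested genes below 0.1 CPM in WT had a median of 14, and the 390 higher genes among them 17.

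Of 4594 lncRNA genes tested, in 1 fit over all biotypes, 315 were more than 2-fold higher (6.86%) and 423 lower (9.21%). MEG3, an imprinted lncRNA of chromosome 14, had 11.7, 9.55 and 9.34 CPM in UHRF1/DNMT1-AID, against 0.696, 2.73 and 1.25 CPM in UHRF1-AID, with 0 reads in WT (log2 fold change 2.71 ± 0.39). LINC02972 had 17.99, 31.2 and 28.2 CPM in UHRF1/DNMT1-AID, against 4.87, 4.58 and 5.05 CPM in UHRF1-AID (log2 fold change 2.42 ± 0.35). KRT7-AS had 10.8, 14.6 and 34.2 CPM in UHRF1/DNMT1-AID, against 0.629, 3.11 and 1.64 CPM in UHRF1-AID (log2 fold change 3.48 ± 0.82). The strand setting of the gene counts is not stated, and the study counted repeats in its bulk RNA-seq in a non-stranded mode. Reads of KRT7-AS and of the keratin gene it overlaps thus cannot be told apart. HIF1A-AS1, antisense to HIF1A, the gene of a hypoxia factor, was lower, with 2.72, 3.47 and 1.13 CPM in UHRF1/DNMT1-AID, against 13.2, 7.89 and 13.04 CPM in UHRF1-AID (log2 fold change -2.23 ± 0.27), under the same limit. ENSG00000274874, a lncRNA of chromosome 12, had 2.16, 1.44 and 1.73 CPM in UHRF1/DNMT1-AID, against 10.4, 6.01 and 8.79 CPM in UHRF1-AID (log2 fold change -2.25 ± 0.21), and a log2 fold change of -0.02 on day 2.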

How the data were processed

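Poly-A RNA of HCT116 degron lines was sequenced as paired-end reads. Per the study's methods, Trim Galore, STAR on GRCh38 and featureCounts turned the reads into gene counts; the authors deposited these raw counts, 1 table per library. The annotation release, strand setting and handling of multi-mapping reads of these gene counts are not given in the sources used here. For its repeat counts the study used a non-stranded mode to suit the library preparation. Of 60648 gene IDs 60462 matched GENCODE v44, which gave names, biotypes and positions, and 186 did not; 0 rows named no gene.

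Protein-coding genes passing edgeR's filterByExpr (minimum count 10) were fitted in edgeR 4.0.16 (R 4.3.3; robust quasi-likelihood, TMM, 36 libraries, 12 groups, 24 residual degrees of freedom), with Benjamini-Hochberg adjustment. Calls past 2-fold needed an adjusted p under 0.05 with a log2 fold change above 1 or below -1; for members of a list the p alone decided. lncRNAs were taken from the same model over all biotypes (22454 genes). The study describes biological triplicates and, for AID lines, generally 3 clones per group. The labels name no culture or clone, so p-values measure the spread between libraries. That spread was estimated over all 36 libraries of the fit, not only over those compared. The median SD of log2 CPM within a group on day 8 was 0.172 in UHRF1/DNMT1-AID and 0.158 in UHRF1-AID. It was 0.146 in DNMT1-AID and 0.101 in WT, so groups with less spread entered the error. With only the compared libraries in the fit, 831 genes were higher and 188 lower past 2-fold. Within UHRF1/DNMT1-AID and within UHRF1-AID on day 8, the only pairs compared, no 2 libraries agreed within sampling noise. Folds against a group with 0 reads used 3 reads over the group.

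Named were UHRF1 and DNMT1, the 12 highest and 12 lowest log2 fold changes among genes of at least 5 CPM on average that passed the test without overlap, up to 4 members of each list by smallest p in the direction with more calls and up to 2 in the other, genes the study names, and the 5 highest and 5 lowest changes between days and lncRNAs. The comparison, the gene lists and this rule were chosen with earlier results of these data known. The paralogs RHOXF2B and MAGEA2B are named beside their copies. Some results are not reported here.

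In simulated counts for this comparison (15185 genes), changes were put only into genes of at least 1 CPM in UHRF1-AID. By adjusted p alone, the test found 58% of genes changed 1.5-fold, 92% of those changed 2-fold and 98% of those changed 4-fold. It also found 6 of 14985 unchanged genes. With the limit on size as well, 2%, 48% and 98% were called. The higher genes had a median of 0.681 CPM in UHRF1-AID, so most of them lie below the simulated level. Alternatives were other scalings (DESeq2 size factors, library size), DESeq2 1.42.0, other filters, the 6 libraries alone, a replicate block, a correction for GC content and gene length, glmTreat against 1.5-fold, all biotypes in 1 fit, leaving out each library and, chosen after seeing the data, the replicate number within a line as a block across days. Figures were drawn with matplotlib 3.10.9.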

Additional observations from a re-analysis of the deposited data

Results flagged for a closer look

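The difference between UHRF1/DNMT1-AID and UHRF1-AID was itself tested between day 8 and day 2, and it was more than 2-fold higher on day 8 in 245 genes and more than 2-fold lower in 529 (edgeR's quasi-likelihood test, adjusted p under 0.05). Among the genes reported by name, 42 were in these counts. The values below are the change in the log2 difference between the lines, day 8 minus day 2.

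Germline and cancer-testis genes that moved up were RHOXF2 by 2.93, RHOXF2B by 2.71, CXorf49 by 2.56, PRR20G by 2.33, TEX101 by 2.28, PAGE2B by 2.17, PAGE2 by 2.14, MAEL by 2.03, TKTL1 by 1.59 and SSX1 by 1.16. The change of RHOXF2B no longer passed without replicate 3 of UHRF1-AID on day 2. Interferon and immune genes that moved up were IL32 by 2.26, HLA-G by 1.46, OASL by 1.29 and ISG20 by 1.20. RTP4, an interferon-induced receptor chaperone, and IFNL2 had the largest fitted changes, 6.16 and 5.25, but RTP4 had 0 reads in UHRF1/DNMT1-AID and 6 in UHRF1-AID on day 2, and IFNL2 1 and 9, so these values depend on very few reads, and that of RTP4 did not pass under 10 alternatives other than glmTreat. Other genes that moved up were DHRS2 by 3.07, MMP13 by 2.11, MMP9 by 1.92, ATF3 by 1.74 and DKK3 by 1.41. So did CHAC1 by 1.33, PNMA5 by 1.26 and H3C10 by 1.04.

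Among cell-cycle and chromatin genes, MAD2L1 changed by -1.26, CDCA7 by -1.18, UHRF1 by -1.03 and BIRC5 by -1.03. Among signalling and identity genes, RFLNA changed by -1.72, KITLG by -1.69, PDE4B by -1.61, ADGRF1 by -1.53 and TCF7L2 by -1.23. In the same group EREG changed by -1.20, OVOL2 by -1.06 and STING1 by -1.04. The ribosomal protein gene RPL21 changed by -1.01.

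The 5 lowest changes were BCL9L at -3.05, KDM6B at -2.71, GFY at -2.66, SYNPO at -2.60 and PLEC at -2.55. They rested on day 2, when PLEC, a cytolinker, had 328, 319 and 237 CPM in UHRF1/DNMT1-AID, against 22.9, 24.7 and 70.2 CPM in UHRF1-AID. KDM6B, a histone H3 lysine 27 demethylase, had 17.2, 10.2 and 11.6 CPM in UHRF1/DNMT1-AID and 0.636, 0.901 and 3.26 CPM in UHRF1-AID on that day. Replicate 3 of UHRF1-AID on day 2 stood apart from replicates 1 and 2 in PLEC, KDM6B, BCL9L and SYNPO, and without it their changes were -3.28, -3.80, -3.88 and -3.44. With the correction for GC content and gene length they were -2.46, -2.65, -2.96 and -2.52.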

How the results depend on the processing

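The fit had 3 libraries a side and 24 residual degrees of freedom. For single genes of at least 1 CPM, the adjusted p reached most simulated 2-fold changes and 1.5-fold changes only in part. The limit on size as well was met by 48% of the 2-fold changes. Genes of few reads could not be judged. Leaving out each library in turn gave 854 to 1145 genes more than 2-fold higher in UHRF1/DNMT1-AID and 215 to 371 lower, 192 to 325 and 445 to 718 for the change between day 2 and day 8, and 267 to 359 and 350 to 496 for lncRNAs. The lowest counts of higher and lower genes came without replicate 1 of UHRF1-AID, and the highest without replicate 2 of UHRF1-AID. Between the other alternatives the counts past 2-fold ran from 815 to 1111 higher and from 188 to 292 lower, except for 624 higher with glmTreat, which asks for a change above 1.5-fold, and 405 lower with scaling by library size only, which shifts the median log2 fold change by -0.113. With glmTreat the day changes were 50 higher and 288 lower, and 150 lncRNAs were higher, against 282 lower. In the fit on these 6 libraries alone, with fewer degrees of freedom, 266 lncRNAs were lower. Of the 1009 higher genes 953 remained with DESeq2, 810 in the fit on the 6 libraries alone and 777 without replicate 1 of UHRF1-AID.

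With the correction for GC content and gene length 4 named genes turned direction, with and without the replicate block. CDKN2D came to -0.086 (-0.083 with the block), UBE2C to -0.042 (-0.036 with the block), CHUK to 0.017 (0.020 with the block) and SC5D to 0.027 (0.027 with the block). The cause was not tested. Of the 256 fold changes and day changes of named genes, 33 lost the call under this correction, these 4 included, 26 in the fit on the 6 libraries alone, 15 with library-size scaling, 2 with DESeq2, 145 with glmTreat, and 11 to 23 without a single day 8 library.

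The replicate numbers do not pair the libraries of the 2 lines on day 8. Libraries of the same number correlated at 0.0173, -0.00652 and 0.0492 in their deviations from the group means, and not every library correlated best with its own number. The fit with the replicate number as a block gave 989 higher and 256 lower genes, 231 and 526 for the day change, and 297 and 410 for lncRNAs. Within a line the numbers can carry over days. Day 2 and day 8 libraries of the same number correlated at 0.186 to 0.326 in UHRF1-AID, against -0.231 to 0.0026 for unlike numbers, but at -0.0706 to 0.103 in UHRF1/DNMT1-AID, against -0.0891 to 0.119. The fit of all libraries takes them as independent. With the number within each line as a block across days, an alternative chosen after seeing the data that leaves 16 residual degrees of freedom, 277 genes had a difference more than 2-fold higher on day 8 than on day 2 and 567 more than 2-fold lower, sharing 232 of the 245 and 520 of the 529 genes.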

Other observations

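Several gene groups have not been described above, and over all genes tested 20.4% were higher and 23.5% lower. Of 25 genes of cholesterol synthesis 9 fell (36%) and 2 rose (8.0%), with a median log2 fold change of -0.13, and of 39 genes of the MYC network and ribosome biogenesis 10 fell and 6 rose (17 and 4 with library-size scaling). Lysosomal genes gave 11 of 35 higher and 9 lower (7 and 11 with library-size scaling), and apoptosis genes 4 of 30 higher and 5 lower (2 and 6). Zinc finger genes of chromosome 19 gave 21 of 170 higher and 16 lower, shares of 12.4% and 9.41% (17 and 25 genes with library-size scaling). Genes of epithelial and mesenchymal identity gave 15 of 47 higher (31.9%) and 5 lower (10.6%, or 3 genes without replicates 1 or 3 of UHRF1-AID), and collagens 3 of 31 in each direction. Targets of the aryl hydrocarbon receptor gave 4 of 12 higher (33.3%) and 2 lower (16.7%), or 2 and 4 with library-size scaling. Matrix, complement and coagulation genes gave 4 of 15 higher and 1 lower, or 4 and 4 with that scaling.

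The clustered protocadherins, neuronal adhesion genes whose variants share exons, gave 21 of 49 higher (42.9%) and 1 lower (2.04%), with a median of 0.54. No member was called higher with library-size scaling, without replicate 2 of UHRF1/DNMT1-AID or without replicate 1 of UHRF1-AID, and 2 or 3 were without replicate 1 of UHRF1/DNMT1-AID or replicate 2 of UHRF1-AID. As these variants share exons, their reads are uncertain as separate measurements.

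Several genes read in UHRF1/DNMT1-AID had no read in UHRF1-AID on day 8. RBMXL2, a testis RNA-binding protein, had 180 reads in UHRF1/DNMT1-AID, at least 75.8-fold higher, and H2BW1, a testis histone of chromosome X, 161 reads, at least 67.8-fold higher. RPL10L, a testis copy of a ribosomal protein gene, had 100 reads, at least 42.1-fold higher, and HENMT1, the piRNA methyltransferase, 52 reads, at least 21.9-fold higher. In the other direction MMP7, or matrilysin, had 0 reads in UHRF1/DNMT1-AID and 15 in UHRF1-AID, at least 3.96-fold lower. These 5 genes were chosen after their values were seen.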
